A study of Mus musculus with 6 samples.

Results

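The genes described here are the skin-type kallikreins, a run of secreted serine proteases encoded side by side on mouse chromosome 7: Klk4, Klk5, Klk6, Klk7, Klk8, Klk10, Klk11, Klk12, Klk13 and Klk14. Members were found by gene symbol in the annotation of the array's probes, which gave 10 probes for 9 of the 10 genes, out of 46619 probes and 19406 named genes on the arrays. Klk12 had no probe under its name and was not analysed. Klk11 had 2 probes and each other member 1.

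The RNA came from mTECs, the epithelial cells of the thymic medulla, taken from the fraction with abundant MHC class II, and was read with one dye on bead arrays made by Illumina. There were 3 arrays from Aire knockout mice and 3 from wild-type mice, all on the C57BL/6 background. Knockout replicates 1 and 3 were male and replicate 2 was female, while wild-type replicate 2 was male and replicates 1 and 3 were female. The labels read here state neither the age of the mice, nor the allele of the knockout, nor how many mice a sample holds, and p-values measure only the spread between these samples, which may be technical. Chip 1 held knockout replicate 1 with wild-type replicates 1 and 2, the pair that carries an earlier date label than the rest, and chip 2 held knockout replicates 2 and 3 with wild-type replicate 3.

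Kallikreins are made as inactive precursors, secreted, and switched on by cleavage. In the outer epidermis several of them activate each other in a cascade and cut the desmosomal proteins that hold corneocytes together, so that dead cells are shed, and the inhibitor encoded by Spink5 restrains them. Other members are best known from enamel formation or from the nervous system. mTECs present antigens of many body tissues to maturing T cells, and Aire is the nuclear regulator that many of these tissue genes need for expression there.

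Values are the authors' normalized log2 values. A background level remains in them, which compresses the differences of dim probes, and levels of different probes are not set against each other. A probe counted as above background on an array where it exceeded 6.80, the centre of the dim probes plus 3 SD, and it was tested when this held on at least 3 of the 6 arrays. Between 18513 and 18568 probes per array passed this bound, and 19529 probes covering 11773 named genes were tested. Pearson correlations over the tested probes were 0.984 to 0.994 within a genotype and 0.909 to 0.935 between genotypes, where probes are not independent replicates. The targeted gene was checked first. The brighter Aire probe read 10.36, 10.30 and 10.01 on knockout arrays 1 to 3, against 13.55, 13.66 and 13.40 on wild-type arrays 1 to 3, so the labels and the Aire signal went the same way on all 6 arrays, and the probe stayed above background in the knockout.

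Klk4, Klk5, Klk6, Klk7, Klk8, Klk10, Klk13 and Klk14, the 8 skin kallikreins that could be tested, fell in Aire knockout mTECs. Klk5, Klk10, Klk13 and Klk14 were above background on the wild-type arrays alone, so that the filter allowed them no direction but a fall. Klk6 and Klk7 were above background on the wild-type arrays and 1 knockout array each, so they too passed only through wild type. The count of 8 therefore describes these genes without supporting anything. Klk4 and Klk8 were above background on all 6 arrays. The median log2 change of the 8 was −1.83, while the median over all 11773 tested genes was +0.02. Across all tested genes, 23.2% were called lower and 18.3% higher by limma with Benjamini-Hochberg adjustment, so a fall by itself was common, and 38.4% of the 19529 tested probes were called in either direction, as were all 8 tested kallikrein probes. In RNA of bulk cells, fewer cells of a type and less RNA per cell cannot be told apart, and this holds for every fall given here.

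**Figure D1:**
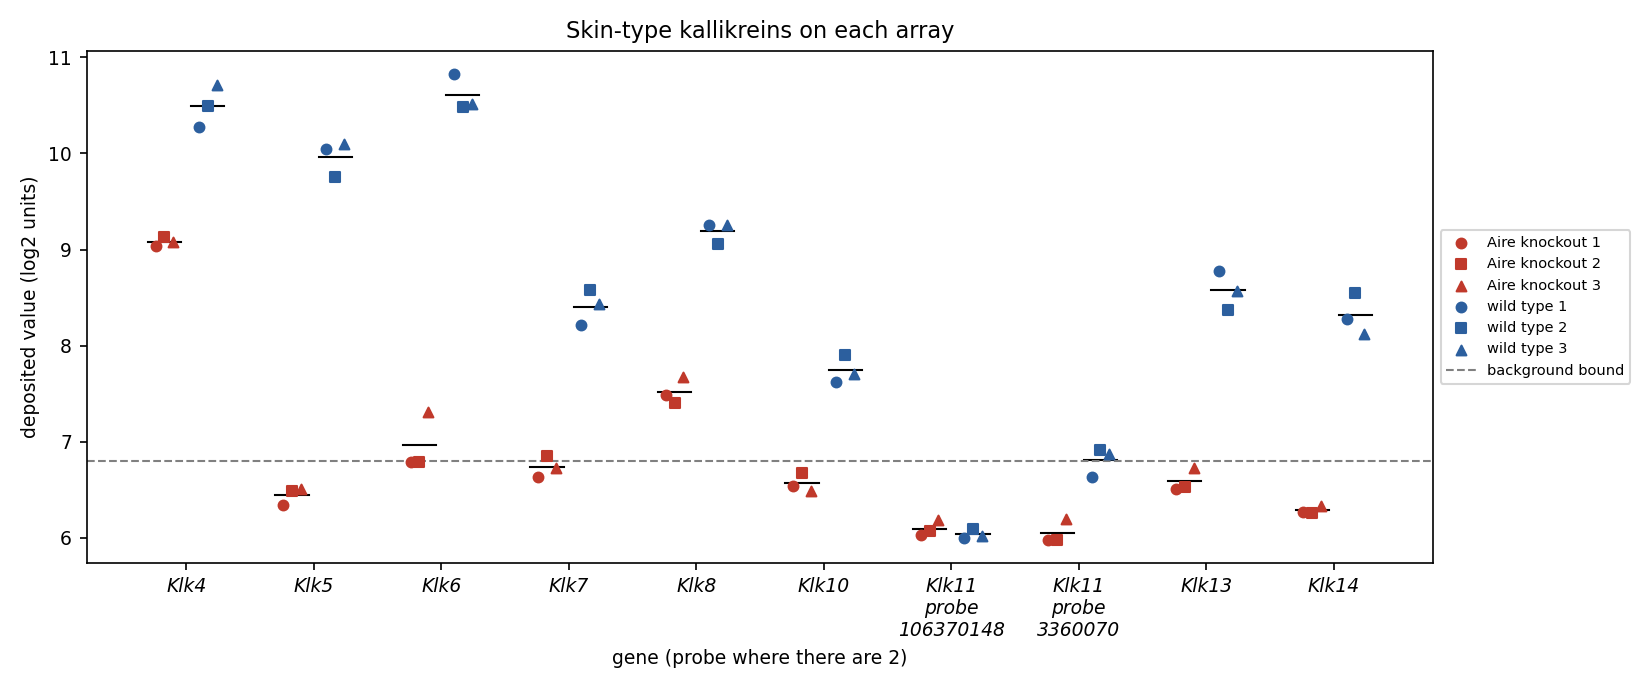
Deposited log2 value (vertical axis) of each skin-type kallikrein probe on the 3 Aire knockout arrays (red) and the 3 wild-type arrays (blue), with horizontal bars at the group means and a dashed line at the background bound of 6.80. The knockout points lie below the wild-type points for every gene except on Klk11 probe 106370148, where they overlap. Among all tested genes, 27.2% likewise had every knockout value below every wild-type value.

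Klk5, Klk7 and Klk14 are the proteases best known from shedding of the epidermis: in human skin KLK5 can activate itself and other kallikreins, KLK14 is a further trypsin-like activator, and KLK7 is the chymotrypsin-like enzyme that cuts corneodesmosin. Klk5 (probe 102900390) read 6.34, 6.49 and 6.51 on knockout arrays 1 to 3, against 10.04, 9.75 and 10.10 on wild-type arrays 1 to 3. It stood above background on every wild-type array and on no knockout array. Klk5 was therefore at least 8.94-fold lower in the knockout, where "at least" means measured against the lowest signal above background (log2 change −3.52, SE 0.12, 95% confidence interval −3.78 to −3.25, adjusted p = 2.61e-08).

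Klk7 (probe 870300) read 6.63, 6.86 and 6.73 on knockout arrays, against 8.21, 8.58 and 8.43 on wild-type arrays. Knockout replicate 2 alone lay just above the background bound, and the groups did not overlap. In the deposited values Klk7 was 3.18-fold lower, a fold that background limits since 2 of the 3 knockout values are not above it (log2 change −1.67, SE 0.12, adjusted p = 4.36e-06). Klk14 (probe 4850605) read 6.27, 6.26 and 6.34 on knockout arrays, against 8.28, 8.55 and 8.12 on wild-type arrays. All 3 knockout values sat at the level of dim probes, with an SD of 0.04, while the wild-type values spread with an SD of 0.22. Klk14 was at least 2.86-fold lower (log2 change −2.03, SE 0.12, adjusted p = 1.14e-06). The size of these folds depends on how background is treated: a normexp correction of the antilog values gave 18.3-fold for Klk5 and 6.53-fold for Klk14 in place of the uncorrected 11.4-fold and 4.08-fold.

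Klk6 and Klk8, known in the brain as neurosin and neuropsin, are expressed in the nervous system as well as in skin. KLK6 is abundant in oligodendrocytes and can cut myelin basic protein, and Klk8 acts in synaptic plasticity of the mouse hippocampus. Klk6 (probe 870026) read 6.79, 6.79 and 7.31 on knockout arrays, against 10.83, 10.48 and 10.52 on wild-type arrays. Knockout replicate 3 was the only knockout array above background, and it gave Klk6 the widest knockout spread of the tested members, an SD of 0.30. With 2 of the 3 knockout values not above background, which limits the fold, the fall in the deposited values was 12.5-fold (log2 change −3.65, SE 0.16, 95% confidence interval −4.00 to −3.29, adjusted p = 1.44e-07).

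Klk8 (probe 2340440) read 7.49, 7.40 and 7.68 on knockout arrays, against 9.26, 9.05 and 9.25 on wild-type arrays. Unlike Klk5 and Klk14, Klk8 stayed above background on all 3 knockout arrays, at 7.52 ± 0.14 (SD, n = 3) beside 9.19 ± 0.12 (SD, n = 3) in wild type. It was 3.17-fold lower (log2 change −1.67, SE 0.11, adjusted p = 2.74e-06).

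Klk4 is the member with the best-known task outside skin: it degrades enamel matrix proteins as teeth mature. Its probe (1050091) read 9.04, 9.13 and 9.07 on knockout arrays, against 10.28, 10.50 and 10.71 on wild-type arrays. The knockout arrays agreed within an SD of 0.05 and all lay well above background, so Klk4 RNA was still detected in the knockout. The fall was 2.67-fold (log2 change −1.42, SE 0.12, 95% confidence interval −1.69 to −1.14, adjusted p = 1.44e-05). Klk4 and Klk8 were the members above background on all 6 arrays, where a change is least compressed. Among the 9661 genes above background on all 6 arrays, 97.8% had a smaller fall than Klk4 or none, and 98.4% a smaller fall than Klk8 or none.

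Klk10, Klk11 and Klk13 have less settled roles. KLK10 was described as a normal epithelial cell gene lost in breast tumour lines, and KLK11 and KLK13 are trypsin-like enzymes of human epidermis and other epithelia. Klk13 (probe 105860372) read 6.51, 6.53 and 6.72 on knockout arrays, against 8.78, 8.37 and 8.57 on wild-type arrays. No knockout array was above background, and Klk13 was at least 3.42-fold lower (log2 change −1.99, SE 0.13, adjusted p = 1.71e-06). Klk10 (probe 4540050) read 6.54, 6.67 and 6.49 on knockout arrays, against 7.62, 7.90 and 7.70 on wild-type arrays. It too was above background on the wild-type arrays alone. With the wild-type values close to the bound, the fold was at least 1.92 (log2 change −1.18, SE 0.11, adjusted p = 2.69e-05).

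The 2 Klk11 probes differed. Probe 3360070 read 5.98, 5.98 and 6.19 on knockout arrays, against 6.63, 6.91 and 6.87 on wild-type arrays. It was above background on wild-type replicates 2 and 3 only, one array short of being tested, although the groups did not overlap. A limma fit without the background filter gave a log2 change of −0.75 (SE 0.10, adjusted p = 0.00164). Measured against the lowest signal above background, its fold was at least 1.00, so no size of a fall is given. Probe 106370148 read 6.03, 6.07 and 6.18 on knockout arrays, against 6.00, 6.09 and 6.02 on wild-type arrays. It was above background on no array and its groups overlapped, so it gives no level of Klk11 in either genotype.

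**Figure D2:**
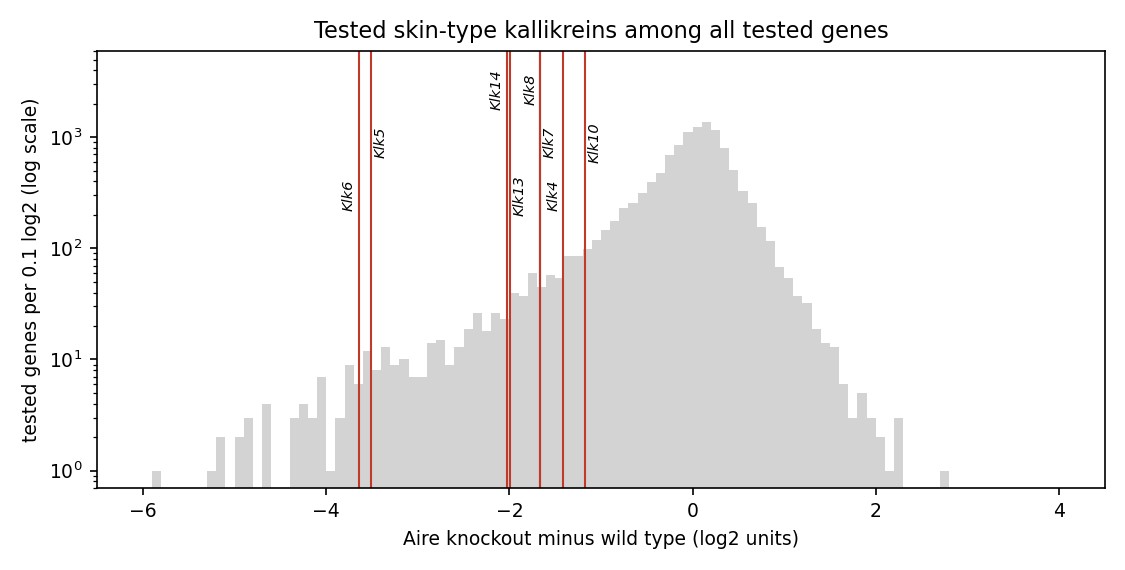
Distribution of the log2 change, Aire knockout minus wild type (horizontal axis), over all 11773 tested genes, with the number of genes per 0.1 log2 unit on a log scale (grey) and the 8 tested skin-type kallikreins as red lines. The lines run from −3.65 (Klk6) to −1.18 (Klk10), all in the left tail, and Klk7 and Klk8 coincide.

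The samples of a genotype were close to each other beside the difference between genotypes. Among the knockout arrays, replicate 3 was the highest for 5 of the 8 tested members (Klk5, Klk6, Klk8, Klk13 and Klk14) and replicate 2 for Klk4, Klk7 and Klk10. Replicate 3 was the highest knockout array for 40% of all tested genes. Among the wild-type arrays, replicate 1 was highest for Klk6, Klk8 and Klk13, replicate 2 for Klk7, Klk10 and Klk14, and replicate 3 for Klk4 and Klk5.

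Each chip held both genotypes, and the change was also fitted within each chip. Knockout replicate 1 is the lone knockout array of chip 1 and wild-type replicate 3 the lone wild-type array of chip 2, so these fits assume that the lone array varies like the others. The 8 members were called lower in both fits, which called 10.1% of all tested genes lower on chip 1 and 11.3% on chip 2. The median log2 change was −1.91 on chip 1 and −1.77 on chip 2. Klk5 changed by −3.56 on chip 1 and −3.59 on chip 2, and Klk10 by −1.22 and −1.12 on the same chips. Klk6 differed most between the chips, at −3.86 on chip 1 and −3.47 on chip 2. Sexes were unequal between the genotypes, so the change was also compared between females and males in a limma model of the 4 combinations of sex and genotype. None of the 8 members was called for a difference (adjusted p = 1.000 for each), as was 0% of the 19529 tested probes, of which 424 had an unadjusted p under 0.05. The model had 2 residual degrees of freedom, so the intervals were wide: for Klk6 the difference of changes, female minus male, was −0.45 with a 95% confidence interval of −1.31 to 0.40.

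Along the chromosome, in the RefSeq order of assembly GRCm38, the block runs Klk14, Klk13, Klk12, Klk11, Klk10, Klk9, Klk8, Klk7, Klk6, Klk5 and Klk4, all transcribed on the same strand. The falls of the tested members in the deposited values did not follow a simple order along it. Klk5 and Klk6, which are neighbours, had log2 changes of −3.52 and −3.65, while Klk4 and Klk7 on either side had −1.42 and −1.67. Background limits how far Klk7 could fall, since its wild-type mean lay 1.61 above the bound. The wild-type means of Klk4, Klk5 and Klk6 lay 3.69, 3.16 and 3.81 above it. Klk9, the remaining kallikrein inside the block, read 6.40, 6.32 and 6.37 on knockout arrays, against 6.68, 6.61 and 6.57 on wild-type arrays. No array was above background and Klk9 was not tested. The gene 2310002F09Rik between Klk13 and Klk12 was above background on no array either.

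The genes flanking the block differed between its ends. Before Klk14 lies Ctu1, which encodes a tRNA-modifying enzyme subunit, and it read 7.99 ± 0.03 (SD, n = 3) in the knockout and 7.77 ± 0.20 (SD, n = 3) in wild type. Its log2 change of +0.22 (SE 0.12) did not pass (adjusted p = 0.160), although it passed at +0.44 (adjusted p = 0.0426) after scaling to housekeeping genes, which moved the median of all tested genes to +0.24. Siglece and Ceacam18, the next genes out, were above background on no array. Beyond Klk4 the kallikreins go on: Klk15 fell by 0.93 log2 units (SE 0.12, adjusted p = 2.55e-04), with 6.71, 6.88 and 7.06 on knockout arrays, against 7.66, 7.92 and 7.85 on wild-type arrays. The first 2 genes of the glandular Klk1 family, Klk1b8 and Klk1b1, fell as well, with log2 changes of −2.22 for Klk1b8 and of −1.81 and −1.28 for the 2 probes of Klk1b1. Klk1b genes are close copies of each other, and whether a probe reads more than 1 of them was not tested.

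**Figure D3:**
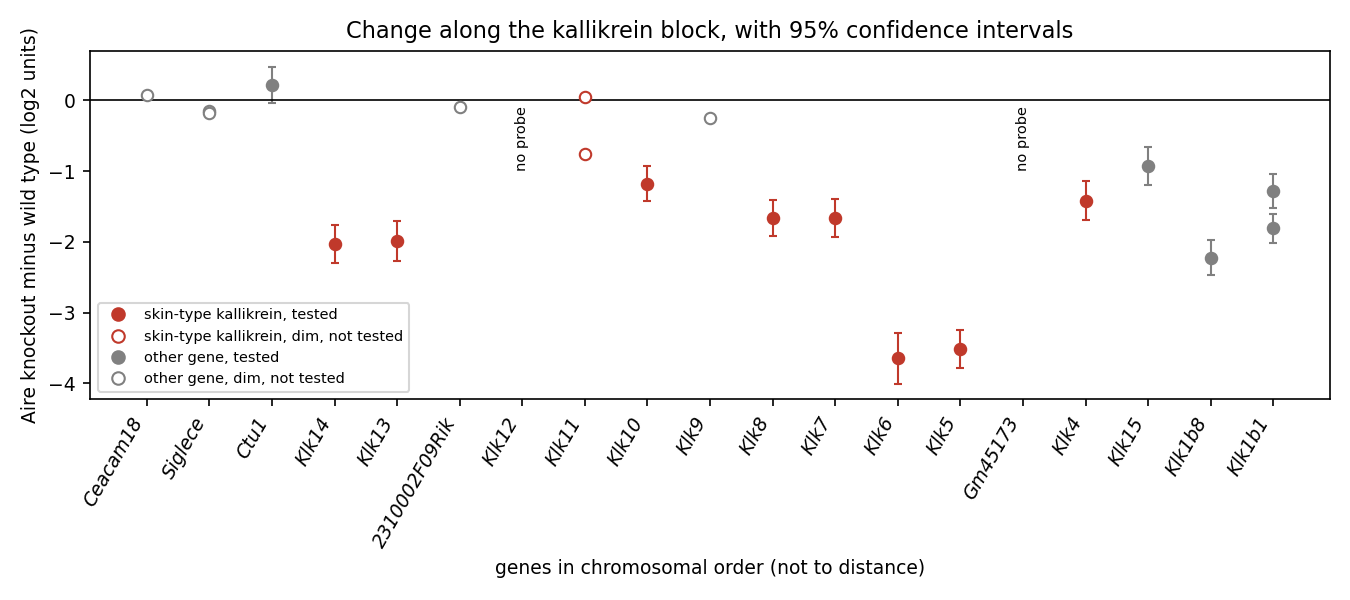
Log2 change, Aire knockout minus wild type (vertical axis), of each probe of the block and of the nearest 3 named genes with a probe on either side, in chromosomal order and not to distance, with 95% confidence intervals for tested probes. Filled red points (tested skin-type kallikreins) lie between −1.18 and −3.65, filled grey points (other tested genes) lie below 0 after Klk4 and near 0 at Ctu1, and open points were too dim to test.

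The stretches just upstream of the annotated starts were read for 4 members. The probes of Klk4 and Klk8 were above background on every knockout array, and those of Klk10 and Klk13 on none. That difference is no measure of the RNA left, since the probes differed in wild type too. The wild-type means of Klk4, Klk8, Klk10 and Klk13 lay 3.69, 2.39, 0.94 and 1.78 above the bound. The sequences are RefSeq's for GRCm38.p6, plus strand, 5′ to 3′, and each is the 250 bases ending at the base before the start: Klk4 at chr7:43880910-43881159, Klk8 at chr7:43797327-43797576, Klk10 at chr7:43780804-43781053 and Klk13 at chr7:43712317-43712566. Capitals mark matches on either strand to TATAA, the core of the TATA box, and to GGGCGG, the GC box. No match is marked in Klk13.
Klk4: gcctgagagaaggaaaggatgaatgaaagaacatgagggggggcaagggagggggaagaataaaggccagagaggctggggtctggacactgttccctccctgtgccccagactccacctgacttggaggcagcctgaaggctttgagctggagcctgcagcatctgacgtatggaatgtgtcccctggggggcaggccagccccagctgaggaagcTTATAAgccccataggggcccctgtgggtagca
Klk8: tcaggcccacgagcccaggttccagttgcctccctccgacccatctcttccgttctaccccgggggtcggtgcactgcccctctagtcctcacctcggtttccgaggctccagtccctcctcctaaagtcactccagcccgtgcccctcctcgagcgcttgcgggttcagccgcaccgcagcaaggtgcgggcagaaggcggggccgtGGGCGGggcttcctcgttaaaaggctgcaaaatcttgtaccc
Klk10: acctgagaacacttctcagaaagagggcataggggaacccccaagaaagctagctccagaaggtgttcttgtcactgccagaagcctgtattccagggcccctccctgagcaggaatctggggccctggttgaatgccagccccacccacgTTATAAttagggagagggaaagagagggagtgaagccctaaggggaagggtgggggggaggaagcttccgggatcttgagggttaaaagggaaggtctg
Klk13: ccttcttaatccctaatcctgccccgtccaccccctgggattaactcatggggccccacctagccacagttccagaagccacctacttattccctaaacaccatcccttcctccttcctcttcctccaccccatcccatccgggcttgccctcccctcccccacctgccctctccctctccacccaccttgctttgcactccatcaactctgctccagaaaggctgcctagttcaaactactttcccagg
In Klk4 the capitals hold TATAA on both strands, overlapping, with its plus-strand match starting 32 bases before the start, which is the usual place of a TATA box. In Klk10 the same letters start 98 bases before it. In Klk8 GGGCGG starts 42 bases before the start.

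Over all members there were 12 such windows, because Klk6 and Klk11 have 2 annotated starts each. TATAA was present in 2 of the 12 windows (Klk4 and Klk10), against 22.8% of all 32851 mouse windows of the same length. GGGCGG was present in 4 (both of Klk6, Klk7 and Klk8), against 32.7% of all windows. TGANTCA, the motif of AP-1 factors, was present in 0 of the 12, against 6.7%. The windows held 0 to 18 CG dinucleotides, with a median of 3 against 6 over all windows, and 37.8% of all windows held 3 or fewer. Klk8, with 18, stood apart from the other members, of which Klk14 held 0. The members that fell thus had no shared match among these 3 motifs, and a match is a description of the letters and not a site.

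The next comparison asks whether genes that act with the kallikreins moved with them. The lists of inhibitors, activators, substrates and cornification genes were chosen with earlier results of these data known, and their counts are to be read against the 23.2% of all tested genes that fell and the 18.3% that rose. Some listed genes, such as Lce3c and Spink6, were above background on wild-type arrays alone, so the filter allowed them only a fall. Above background on all 6 arrays were 5 inhibitors (0 fell, 2 rose) and 9 activators (2 fell, 1 rose). So were 10 substrates (3 fell, 3 rose) and 12 cornification genes (9 fell, 1 rose). Under that filter 16.1% of all tested genes were called lower.

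Of 12 inhibitors 7 were tested, 1 fell and 2 rose, with a median log2 change of −0.14. Without knockout replicate 3 the count of inhibitors lower was 3, and the median was above 0 without knockout replicate 1 (+0.06) or replicate 2 (+0.08), on chip 2 alone (+0.21) and after housekeeping scaling (+0.08), so the list had no settled direction. Spink6, a kallikrein inhibitor of human skin, fell: it was above background on no knockout array and was at least 1.85-fold lower (log2 change −1.39, SE 0.09). The inhibitors that rose were Spint2, an inhibitor of membrane-bound serine proteases, by 0.66 (SE 0.18), and Serpina12 (vaspin, which inhibits KLK7 in humans), by 0.47 (SE 0.10). Spink5, which encodes the main kallikrein inhibitor of the epidermis, was too dim to test: it read 6.37, 6.69 and 6.65 on knockout arrays, against 6.57, 6.94 and 6.83 on wild-type arrays, and these overlap.

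Of 14 proteases listed as activators 9 were tested, 2 fell and 1 rose, with a median of −0.10, which was +0.03 without wild-type replicate 1 and +0.11 after housekeeping scaling. Ctsd, the lysosomal protease cathepsin D, fell by 1.04 log2 units (SE 0.18), and Tmprss13, a membrane-bound serine protease of epidermis, fell by 0.61 (SE 0.16). St14 encodes matriptase, which starts the kallikrein cascade in Spink5-deficient mouse epidermis. It rose by 0.41 (SE 0.11) on its brightest probe, while its other 2 tested probes, at +0.31 and +0.09, did not pass.

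Of 21 listed substrates 17 had a probe and 12 were tested, of which 6 fell and 3 rose, with a median of −0.20. Camp, the precursor of the cathelicidin peptide that skin kallikreins process, read 8.75, 8.63 and 8.77 on knockout arrays, against 12.04, 11.84 and 11.59 on wild-type arrays. It stayed above background in the knockout and fell by 3.11 log2 units (SE 0.13). Amelx, the enamel protein amelogenin that Klk4 degrades, read 6.10, 6.01 and 6.23 on knockout arrays, against 8.63, 8.08 and 8.36 on wild-type arrays, and was at least 2.94-fold lower. Cdsn, which encodes corneodesmosin, was at least 1.25-fold lower (log2 change −0.57, SE 0.11).

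Mbp, the myelin protein cut by KLK6, rose by 0.62 (SE 0.15) on its brightest probe, while the other 2 tested probes did not pass, at −0.21 and +0.06. The other substrates that rose, named after their values were seen, were the desmogleins Dsg1b, by 0.50 (SE 0.12), and Dsg1a, by 0.42 (SE 0.11). These desmosomal cadherins hold keratinocytes together, so the substrates moved in both directions. The remaining substrates that fell, likewise named after their values were seen, were Il1b (log2 change −0.54), F2r (log2 change −0.52) and Fn1 (log2 change −0.30).

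Cornification genes, which build the outer epidermal layer in which the kallikreins work, fell more broadly: of 18 listed 17 had a probe and 16 were tested, of which 13 fell and 1 rose, with a median of −1.07. Lce3c, of the late cornified envelope family, had no knockout array above background, and its fall was at least 10.6-fold. Casp14, a protease of cornifying keratinocytes, was at least 3.34-fold lower. Lor (loricrin) fell by 1.87 (SE 0.12) and Sprr1b, a cross-linked envelope protein, fell by 1.87 (SE 0.11), and both stayed above background on all knockout arrays. Tgm3, an envelope cross-linking enzyme, was the member that rose, by 0.73 (SE 0.13), and it is named after its value was seen. The summed antilog level of the cornification genes was 13200 to 16100 on knockout arrays and 22900 to 26000 on wild-type arrays, in arbitrary units. Its part in the falls of the kallikreins was not tested.

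The calls of these genes were compared across the alternatives, where each fit of 1 chip has a genotype with 1 array. Spink6, Camp, Amelx, Lce3c, Casp14, Lor and Sprr1b kept their call in every alternative in which they were tested, within each chip included. Spint2, Serpina12, St14, Tmprss13, Cdsn, Dsg1a and Dsg1b were called on neither chip alone, though with changes of like size for some of them, such as +0.48 and +0.57 on chips 1 and 2 for Serpina12 and +0.46 and +0.61 for Dsg1b. On the same fits Ctsd was not called on chip 2, and Mbp and Tgm3 were not called on chip 1. Leaving out knockout replicate 2 ended the calls of Spint2, St14 and Dsg1a and left 4 rises over the 4 lists in place of 7. Dsg1a also lost its call without knockout replicate 1 or wild-type replicate 3, and after cyclic loess, and St14 lost it without wild-type replicate 2. Mbp lost its call when the tested probes of a gene were averaged, at +0.16 (limma adjusted p = 0.252). Every knockout array and wild-type replicate 3 carry the later date label. With the date label in the model, the change is therefore set against that 1 wild-type array, and its calls are not read. In that fit the changes were +0.34 for Spint2, +0.27 for St14, −0.76 for Ctsd, −0.45 for Tmprss13, −0.44 for F2r and −0.34 for Fn1. These were smaller than without the label, except for Fn1. Housekeeping scaling ended the calls of Tmprss13, Cdsn, Il1b, F2r and Fn1 and left 2 substrates lower in place of 6. Fn1 also lost its call with sex or replicate number in the model and with a trended and robust variance. Leaving out any 1 array except knockout replicate 3 ended it too, as did requiring signal on all 6 arrays. On chips 1 and 2 the changes were −0.39 and −0.66 for Il1b, −0.67 and −0.38 for F2r and −0.42 and −0.28 for Fn1.

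**Figure D4:**
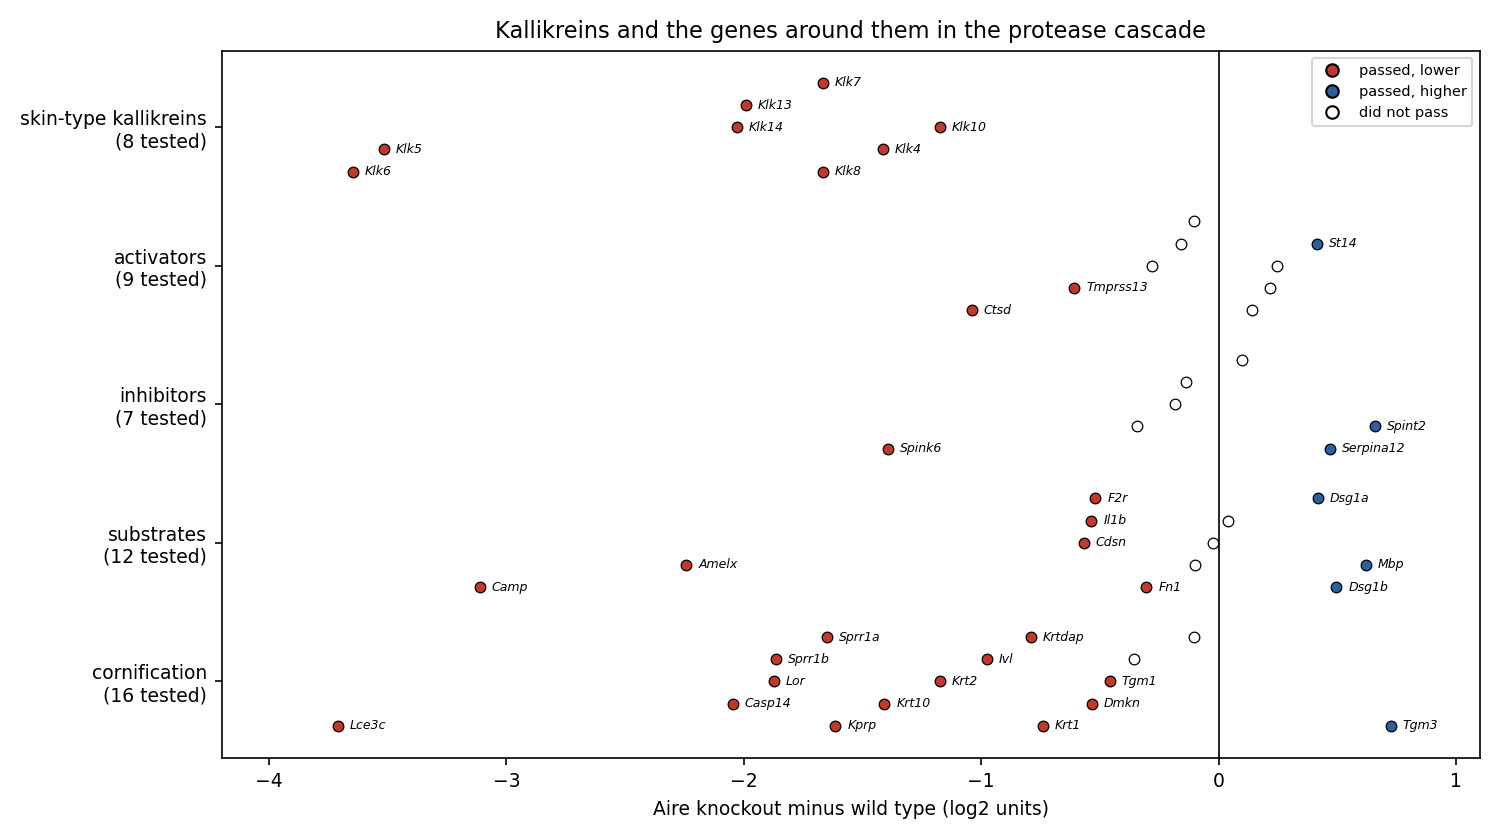
Log2 change, Aire knockout minus wild type (horizontal axis), of each tested gene, in rows for the skin-type kallikreins and the lists of activators, inhibitors, substrates and cornification genes. Filled points passed (red lower, blue higher) and open points did not. All 8 kallikreins lie at −1.18 or below, activators and inhibitors lie on both sides of 0, and 13 of 16 cornification genes are red.

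Marker genes of the sorted cells and of other cell types were read in the same way. All 11 mTEC markers with a probe were above background on every array. Their summed antilog level was 80400 to 82400 on knockout arrays and 94200 to 99700 on wild-type arrays, without overlap. That sum includes Aire, the targeted gene, which fell by 3.31 log2 units, and a sum without Aire was not computed. The median log2 change of the 11 markers was −0.03. Of these Aire fell, as did the basal keratins Krt5 (log2 change −1.83, SE 0.28) and Krt14 (log2 change −0.70, SE 0.13), and none rose. Of 9 thymocyte markers with a probe 6 were tested and 2 fell (Cd3g and Cd3d), and Rag1 and Rag2 were above background on no array. The summed antilog level of the thymocyte markers was 2230 to 3070 on knockout arrays and 3200 to 3990 on wild-type arrays, also without overlap. Of 9 dendritic and myeloid markers with a probe 5, among them Itgax and Itgam, were above background on no array, 1 fell and 1 rose, and the sum was 8160 to 9220 on knockout arrays and 6290 to 8220 on wild-type arrays. For B cell markers the sum was 1910 to 1950 on knockout arrays and 1540 to 1660 on wild-type arrays, higher in the knockout without overlap. Of the 2 tested B cell markers 1 was lower and 1 higher, and Ms4a1 and Pax5 were above background on no array. Cortical epithelial markers (1 of 5 lower, 2 higher) summed to 819 to 1220 on knockout arrays and 886 to 1250 on wild-type arrays. Fibroblast and endothelial markers (2 of 6 lower, 1 higher) summed to 1230 to 1510 on knockout arrays and 1120 to 1570 on wild-type arrays. The part of these markers in the falls of the kallikreins was not tested.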

How the data were processed

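RNA preparation used a Qiagen column with DNase treatment, and the dye was Cy3, per the labels. The authors deposited normalized log2 values, 1 per probe and array, made with BeadStudio and lumi per the submitters' processing notes, which give no version of either. How background, transform and normalization were handled, and whether the scale is a plain log2, is stated nowhere in the sources used here, and folds are antilogs of differences of deposited values. The number of arrays limits the precision. The 24 value columns of the other tables match no sample label and were not used.

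Background was set on each array as the mode of values below 7 plus 3 SD. The test was the two-sided moderated test of limma 3.58.1 (R 4.3.3, lmFit then eBayes) with genotype as the model, adjusted by Benjamini-Hochberg over 19529 probes at a threshold of 0.05, after the script was tested on simulated data. For a gene with several tested probes, the brightest on average stood for it. Of all probes 32782 had 1 symbol, 55 several and 13782 none, and the last 2 kinds were unnamed.

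The members and lists were chosen with earlier results of these data known. The text names every member probe, Aire, up to 4 called genes per list with the largest change, and the genes in and beside the block, plus a few list genes and markers chosen after their values were seen. Promoter windows matched all 10 members by symbol. Replicate numbers are shared by the genotypes, but the deviations of same-numbered arrays correlated at 0.20, −0.06 and −0.02, so the numbers were not taken as pairs. Alternatives were cyclic loess, scaling to 24 housekeeping genes, normexp (offset 16), other filters and a bound of 2 SD, chip, sex, date label or replicate number in the model, single chips, a trended and robust variance, probes averaged by gene, and leaving out each array.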

Additional observations from a re-analysis of the deposited data

How the results depend on the processing

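The 8 tested members kept their direction and their call in all 154 results of a gene under an alternative. Fits of 1 chip, or with the date label, rest on 1 array of a genotype. Klk5, Klk6, Klk7, Klk10, Klk13 and Klk14 passed the filter only through wild type, and most alternatives kept that filter. Their kept falls therefore support nothing. Klk4 and Klk8, with 20 alternatives each, could have gone either way. Requiring signal above background on all 6 arrays left 2 members to test, Klk4 and Klk8, and both the count of probes called and the count of genes lower were 2, with a median log2 change of −1.54. With no filter, and with a bound of 2 SD, 9 genes were called, Klk11 included, and the median was −1.67. The Klk11 probe called, 3360070, had a wild-type mean only 0.005 above the bound of 3 SD. Requiring signal on all 6 arrays called 16.1% of all tested genes lower. This share was 15.2% with no filter and 22.4% with the bound of 2 SD. The median was −1.99 after cyclic loess, −1.61 after housekeeping scaling, which moved the median of all tested genes to +0.24, and −2.29 after normexp. The cause of these moves was not tested. With the replicate block the count stayed 8 and the median −1.83, and leaving out each array gave counts of 8 and medians of −1.90 to −1.80. Over the inhibitor, activator, substrate and cornification lists together, 22 genes were lower and 7 higher. These counts were 13 lower and 0 higher on chip 1 alone, 13 lower and 2 higher on chip 2 alone, each with 3 arrays of which 1 genotype has 1, and 14 lower among the 36 genes above background on all arrays. Leaving out each array gave 21 to 24 lower and 4 to 7 higher, the lowest count of rises without knockout replicate 2. The interaction of sex and genotype called 0 members under each scaling, background and filter setting and with knockout replicate 1 or 3 or wild-type replicate 1 or 3 left out (0 to 0), and could not be fitted without knockout replicate 2 or wild-type replicate 2, the lone array of its sex and genotype. Alternatives for the lists and for the interaction were added after the data had been seen. Housekeeping scaling lowered the share of all tested genes called lower to 14.0%, and cyclic loess raised it to 27.1%. Background signal limits the folds of Klk5, Klk10, Klk13 and Klk14 to lower bounds, and limits those of Klk6 and Klk7, which were above background on 1 knockout array each.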

Other observations

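Without the background filter, Klk9 had a log2 change of −0.25 (limma adjusted p = 0.0342) although none of its values was above background. That fit called 15.2% of all genes lower. The knockout values of Klk9 all lay below its wild-type values, as they did for 27.2% of the genes tested with the filter.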
